A study of Capra hircus with 2 samples.

Results

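The collagen genes of Liaoning cashmere goat skin were followed through the cell types that carried their transcripts. Members were chosen by name: every gene symbol of the expression matrix that reads COL, a number, A and a number. Of 27137 features, 44 symbols matched, and 42 of them had at least 1 UMI (unique molecular identifier, a counted transcript molecule) in the cells that the authors kept, while COL10A1 and COL20A1 had 0. Of the 42 members, 24 had 100 or more UMIs and are described by cell class, 9 had 10 to 99 and 9 had 1 to 9. The study compared 1 healthy coarse-type goat (CT-LCG) with 1 healthy fine-type goat (FT-LCG), both of the Liaoning breed. Scapular skin in anagen, the growth phase of the hair cycle, was dissociated with collagenase and papain, freed of red blood cells and dead cells, and sequenced with the 10x Genomics 3′ single-cell kit. There was 1 library per fibre type, so differences between CT-LCG and FT-LCG cannot be told apart from differences between 2 goats or 2 preparations, and no test was possible.

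Collagens are secreted or membrane-bound proteins of triple-helical chains that build the extracellular matrix. Fibrillar collagens form the tensile fibres of the dermis, network collagens form the sheets of basement membranes, and anchoring collagens fasten basal keratinocytes to the dermis below. In skin, fibroblasts are known as the main makers of fibrillar collagen, while keratinocytes, endothelial cells and the mural cells around vessels make components of their own basement membranes.

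The kept cells numbered 3443 in CT-LCG, with 27890472 UMIs and a median of 2314 UMIs per cell, and 9608 in FT-LCG, with 85400323 UMIs and a median of 6121.5. Only 11 cell barcodes occurred in both libraries (0.319% of CT-LCG and 0.114% of FT-LCG). A level is the number of a gene's UMIs per 10000 of all UMIs in a group of cells from 1 library, with exact Poisson 95% intervals. Shares have exact binomial (Clopper-Pearson) intervals and ratios the conditional binomial interval. All intervals cover counting error only. Because the kit counts transcript ends and not lengths, levels are compared between cells and not between genes.

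Cells fell into 30 clusters, grouped into classes by marker lists that held no collagen gene. The fibroblast class had 74 CT-LCG cells, of which 8 were fibroblast-like and 66 dermal papilla-like, and 56 FT-LCG cells, of which 31 and 25 were. The fibroblast-like cluster had DCN at 163 and 90.8 UMIs per 10000 and LUM at 29.4 and 32.5 in CT-LCG and FT-LCG, and the dermal papilla-like cluster had RSPO3 at 16.3 and 7.69, with CORIN at 0 in both libraries. The endothelial class had 48 and 149 cells, and its blood endothelial-like cluster had PECAM1 at 15.7 and 10.3. The mural class had 17 cells in CT-LCG, too few to be ranked, and 47 in FT-LCG. Its pericyte-like cluster had RGS5 at 21.0 and 11.0, whereas its smooth muscle-like cluster had ACTA2 at 112 and 53.2 and RGS5, NOTCH3 and PDGFRB at 0. The basal keratin KRT5 was at 46.0 and 31.7 in the smooth muscle-like cluster and at 2.45 and 26.0 in the pericyte-like cluster. Keratinocytes made up 3083 of the CT-LCG and 9046 of the FT-LCG cells, in 19 clusters of hair follicle and epidermis.

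Keratinocytes and fibroblasts together carried nearly all collagen transcripts, in different proportions in the 2 libraries. In CT-LCG, 14911 UMIs came from collagen genes, which is 5.35 per 10000, and 40.4% (95% interval 39.6 to 41.2%) of them lay in the fibroblast class and 55.3% (54.5 to 56.1%) in keratinocytes. In FT-LCG there were 82796, or 9.70 per 10000, and the fibroblast class held 14.7% (14.5 to 15.0%) and keratinocytes 79.8% (79.5 to 80.1%). Endothelial cells held 1.61% and 1.39%, and mural cells 1.13% and 0.954%. A single cell weighed on these shares. The CT-LCG cell with the most collagen held 11.6% of that library's collagen UMIs, and without the top cell of each library the fibroblast share was 32.6% in CT-LCG and 10.9% in FT-LCG. Per UMI the fibroblast class was the richest, at 152 collagen UMIs per 10000 in CT-LCG and 549.5 in FT-LCG. Mural cells had 34.2 and 27, melanocyte-like cells 18.7 and 28.8, endothelial cells 12 and 13.9, immune cells 1.5 and 10.4, and keratinocytes 3.19 and 8.20. Against these levels stands the size of the classes: keratinocytes held 92.5% of all CT-LCG UMIs and 94.4% of all FT-LCG UMIs, and the fibroblast class 1.42% and 0.260%. A gene spread evenly over all RNA would have the same shares.

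By family, the fibrillar collagens took 36.6% of the CT-LCG and 17.4% of the FT-LCG collagen UMIs, and the transmembrane collagens, nearly all of them COL17A1, took 29.4% and 44.4%. The FACIT group, collagens that sit on the surface of fibrils, took 12.3% and 14.4%. The basement membrane network took 7.30% and 6.44%, the multiplexins COL15A1 and COL18A1 took 7.08% and 12.2%, and the beaded filaments of collagen VI and its relatives took 5.10% and 1.41%. COL7A1, the anchoring fibril collagen, took 1.94% and 3.41%. The order of the families thus differed between the libraries, with fibrillar genes first in CT-LCG and COL17A1 first in FT-LCG. The CT-LCG order, however, rested on 1 fibroblast-like cell. Fibrillar genes had 5457 UMIs there and transmembrane genes 4386, and that cell held 563 COL1A1, 726 COL1A2 and 291 COL3A1 UMIs.

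**Figure D1:**
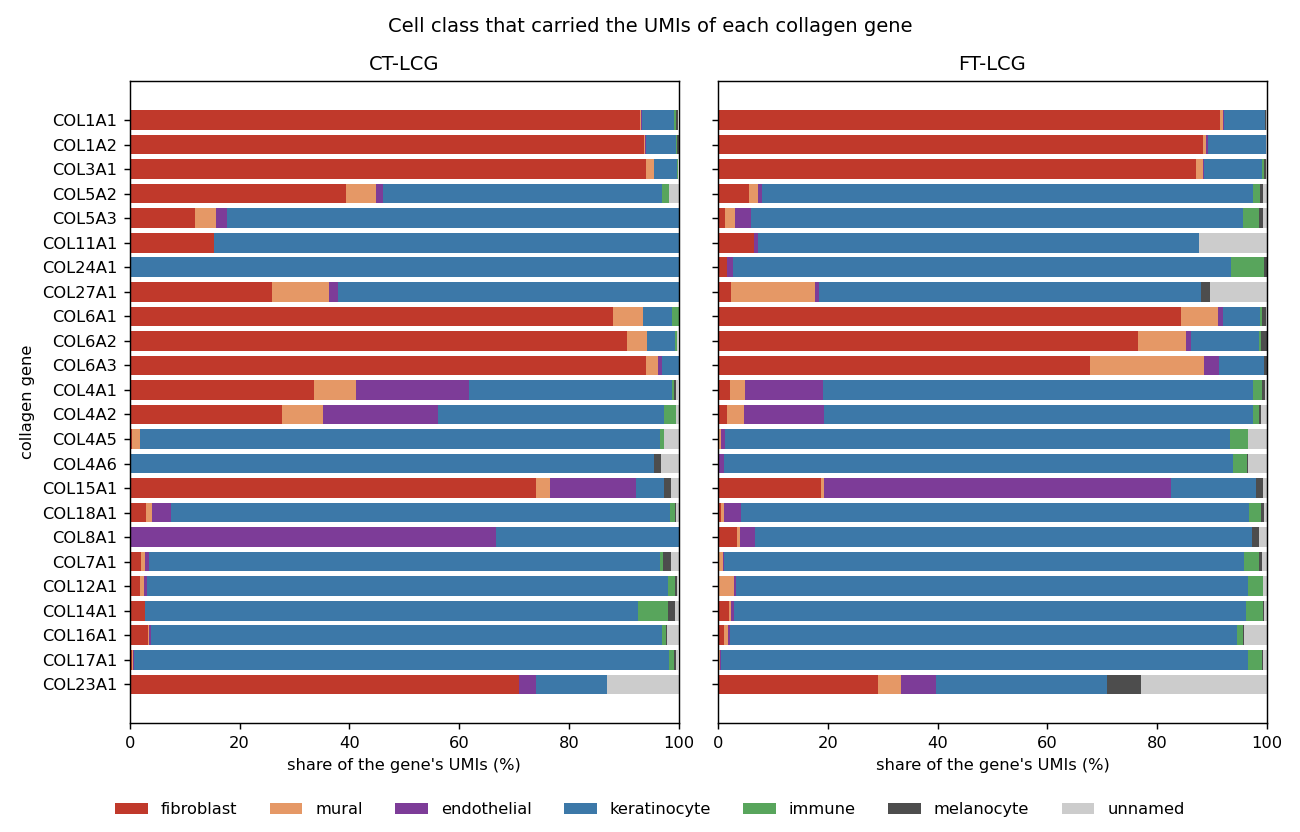
Share of each collagen gene's UMIs (percent, x axis) that lay in each cell class (colours), for the 24 genes with 100 or more UMIs (y axis), in CT-LCG (left) and FT-LCG (right). COL1A1 to COL3A1 and COL6A1 to COL6A3 lay mostly in the fibroblast class in both libraries, COL15A1 was 74.0% fibroblast in CT-LCG and 63.2% endothelial in FT-LCG, and COL17A1 was 97.4% and 96.1% keratinocyte.

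The class that held most of a gene's UMIs was the same in both libraries for 21 of the 24 genes. Keratinocytes held most for 15 genes in both, but they exceeded their share of all UMIs for 7 of the 24 genes in CT-LCG and for 2, COL7A1 and COL17A1, in FT-LCG. The fibroblast class held most for 6 genes in both: COL1A1, COL1A2, COL3A1, COL6A1, COL6A2 and COL6A3. The 3 genes that differed were COL8A1, COL15A1 and COL23A1. A second measure, the highest level per 10000, is not scaled by class size but is uncertain where a class has few UMIs. By it the fibroblast class led for 12 of 24 CT-LCG genes and 13 FT-LCG genes, 10 of them shared. The endothelial class led for 4 and 2 genes, keratinocytes for 2 and 0, the mural class for 3 in FT-LCG, and melanocyte-like cells for 6 and 6. The unranked CT-LCG mural class was above the leading endothelial class for COL4A1, COL4A2 and COL18A1, at 7.94, 3.46 and 2.44. It was also above the leading fibroblast class for COL5A2, COL5A3 and COL27A1, and above keratinocytes for COL4A5. The other endothelial lead in CT-LCG, COL8A1, rested on 4 UMIs in 1 cell. Only 10 of the 24 CT-LCG leads and 12 of the FT-LCG leads stood clear of the intervals of all other ranked classes. In the fibroblast class 8 and 7 leads did, in the endothelial class 0 and 2, in keratinocytes 0 and 0, in melanocyte-like cells 2 and 2, and in the FT-LCG mural class 1. For 7 genes the fibroblast class stood above all other ranked classes by more than their intervals in both libraries: the 6 named above and COL5A2.

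The melanocyte-like cells are few and shallow, with 21 and 42 cells and a median of 1058 and 1063.5 UMIs, and 5 of the 6 CT-LCG leads rest on 1 to 4 UMIs. The other is COL17A1, at 6.64 in CT-LCG (17 UMIs, 95% interval 3.87 to 10.6) and 9.17 in FT-LCG (72 UMIs, 7.18 to 11.5), close to its level in basal epidermal-like cells. The same melanocyte-like cells had the basal keratin KRT14 at 39.1 and 54.5 and the pigment gene PMEL at 0.781 and 4.08, and the part of keratinocyte RNA in their collagen levels was not tested. In CT-LCG, PMEL was higher, at 8.32, in the 17 cells of the keratinocyte cluster led by TFPI2 and CXCL14, with KRT14 at 6.38. The CT-LCG melanocyte-like cells also had the endothelial marker PECAM1 at 2.34, so their name is less certain in that library. Without them as a ranked class, the fibroblast class was highest for 15 genes in CT-LCG and 14 in FT-LCG.

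**Figure D2:**
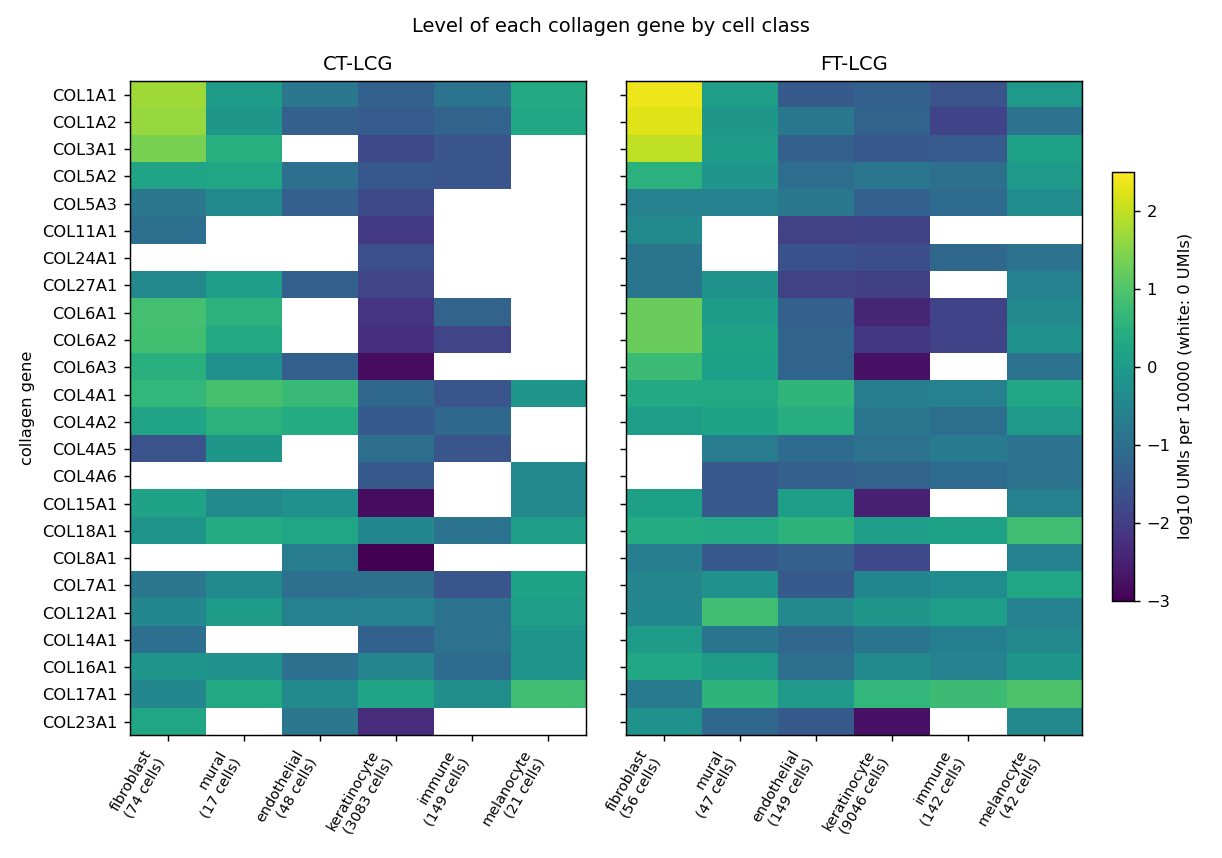
Level of the 24 collagen genes (y axis) in each cell class (x axis, with its number of cells), as the base-10 logarithm of UMIs per 10000 (colour; white for 0 UMIs), in CT-LCG (left) and FT-LCG (right). COL1A1, COL1A2, COL3A1 and COL6A1 to COL6A3 are brightest in the fibroblast class of both libraries. COL4A1 and COL4A2 are brightest in the fibroblast, mural and endothelial classes. COL12A1 reaches 6.49 in the FT-LCG mural class, where most of its UMIs lay in smooth muscle-like cells.

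Collagen I, the main fibre of the dermis, lay mostly in the fibroblast class. COL1A1, its alpha-1 chain, had 2066 of 2223 UMIs there in CT-LCG (92.9%) and 5028 of 5501 in FT-LCG (91.4%). Its class level was 52.3 (50.1 to 54.6) in CT-LCG and 226 (220.1 to 233) in FT-LCG. In keratinocytes it was at 0.0512 and 0.0516, and in endothelial cells at 0.149 (3 UMIs) and 0.0360 (3 UMIs). The alpha-2 chain gene COL1A2 followed it closely, with 93.7% and 88.4% of its UMIs in the fibroblast class and class levels of 44.8 and 170.1. COL3A1, the collagen of fine fibres that run with collagen I, had 94.0% and 87.1% there, at 23.2 and 95.9. All 3 genes were higher in the FT-LCG than in the CT-LCG fibroblast class by more than counting error.

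After each cell was thinned to 1000 UMIs, all 8 fibroblast-like cells of CT-LCG and all 27 left in FT-LCG still had a COL1A1 UMI, as did 43.9% (31.7 to 56.7%) of dermal papilla-like cells in CT-LCG and 47.6% (25.7 to 70.2%) in FT-LCG. Before thinning the papilla shares were 87.9% and 80.0%. Keratinocytes, which should lack the gene, had a COL1A1 UMI in 1.24% and 1.25% of thinned cells (3.15% and 3.92% before), at a class median of 2131 and 6429 UMIs per cell against 4889.5 and 2929.5 in the fibroblast class. Endothelial cells had it in 7.32% (1.54 to 19.9%) in CT-LCG and in 0 of 134 thinned cells in FT-LCG, which allows a share of up to 2.24%. Thinning left out 0 and 4 cells of each fibroblast cluster.

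The minor fibrillar genes were spread otherwise. Among the ranked classes COL5A2, a chain of collagen V that starts fibril assembly, was highest in the fibroblast class. It was at 1.62 (1.25 to 2.07) in CT-LCG and 3.24 (2.54 to 4.08) in FT-LCG there, yet keratinocytes held 50.9% and 89.5% of its UMIs. The 17 CT-LCG mural cells, which were not ranked, had COL5A2 at 1.83 (0.837 to 3.48, 9 UMIs). The bulge-like or outer root sheath cluster led by LCN2 and KRT19 had COL5A2 at 1.19 and 1.84, against a keratinocyte class level of 0.0322 and 0.142. Its partner chain COL5A1 had 11 UMIs in all. COL5A3 had 82.4% and 89.7% of its UMIs in keratinocytes, at 0.0163 and 0.0506. COL11A1, a chain that shares its fibrils with collagen V, had 84.6% and 80.3% of its 26 and 137 UMIs there, COL24A1 100.0% of 57 and 90.8% of 185, and COL27A1 62.1% of 58 and 69.6% of 125. Except for COL24A1 in CT-LCG, these keratinocyte shares were below the 92.5% and 94.4% that keratinocytes held of all UMIs.

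Collagen VI, which forms beaded filaments around cells and fibres, was a fibroblast class product with a small mural part. COL6A1 had 88.1% and 84.3% of its UMIs in the fibroblast class, at 7.11 (6.30 to 7.99) in CT-LCG and 17.6 (15.9 to 19.5) in FT-LCG. COL6A2 was at 6.86 (6.07 to 7.73) and 17.2 (15.5 to 19.0), so that the 2 chains ran at a ratio of 1.04 and 1.03. COL6A3 was at 3.16 and 5.58. In the dermal papilla-like cluster COL6A3 was at 2.68 (2.16 to 3.29) and 5.45 (4.12 to 7.08), against 6.37 (4.39 to 8.95) and 5.69 (4.42 to 7.22) in the fibroblast-like cluster, so in FT-LCG the intervals of the clusters overlapped for this chain. For COL1A1 the same clusters were at 5.77 and 361 in CT-LCG and at 18.6 and 405 in FT-LCG. Pericyte-like cells had COL6A1 at 4.63 (17 UMIs in 7 cells) and 1.82 (31 UMIs in 33 cells), and COL6A3 there took 20.8% of the gene's FT-LCG UMIs. Keratinocytes were near 0 for collagen VI, at 0.00659 and 0.00385 for COL6A1. COL6A1 and COL6A2 lie next to each other in the goat reference annotation, as do COL4A1 and COL4A2, and COL3A1 and COL5A2.

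The basement membrane chains COL4A1 and COL4A2, the common pair of collagen IV, were counted in vascular cells and in dermal papilla-like cells. COL4A1 was at 5.18 (4.23 to 6.28) in CT-LCG and 4.01 (3.59 to 4.46) in FT-LCG endothelial cells. In dermal papilla-like cells it was at 4.92 (4.21 to 5.72) and 2.53 (1.65 to 3.71), and in pericyte-like cells at 10.6 (7.55 to 14.5, 39 UMIs in 7 cells) and 3.28 (2.48 to 4.26). For COL4A1, the endothelial and papilla intervals overlapped widely in CT-LCG and slightly in FT-LCG, and the pericyte-like interval lay above both in CT-LCG. The fibroblast-like cluster had 0 COL4A1 UMIs in CT-LCG, which allows up to 0.579 per 10000, and 24 UMIs in FT-LCG, at 2.01. COL4A2 followed with 2.39 and 2.64 in endothelial cells, 1.86 and 1.17 in dermal papilla-like cells and 4.63 and 2.29 in pericyte-like cells. In thinned cells a COL4A1 UMI was found in 29.3% and 26.9% of endothelial cells (39.6% and 50.3% before thinning), in 36.4% and 23.8% of dermal papilla-like cells, in 0.949% and 2.96% of keratinocytes and in 0% and 2.26% of immune cells.

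By numbers, keratinocytes held 36.9% of the CT-LCG and 78.3% of the FT-LCG COL4A1 UMIs, and 41.3% and 78.2% of those of COL4A2. Their COL4A1 level peaked in the bulge-like or outer root sheath cluster led by LCN2 and KRT19, at 2.06 (1.34 to 3.02) and 2.18 (1.93 to 2.45), and fell to 0.0105 in FT-LCG granular cells led by LOR. The chains COL4A5 and COL4A6, which are known from the epidermal basement membrane, had 94.6% and 92.0%, and 95.6% and 92.8%, of their UMIs in keratinocytes, above the keratinocyte share of all UMIs in CT-LCG and below it in FT-LCG. In FT-LCG the COL4A5 level was 0.111 in keratinocytes, 0.205 in mural cells (6 UMIs) and 0.196 in immune cells. COL4A5 had 1 UMI in CT-LCG and 0 in FT-LCG fibroblasts, and COL4A6 had 0 in both. COL4A3 and COL4A4 had 3 UMIs each in the whole series.

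The multiplexins, long-chain collagens of basement membrane zones, differed in their cells. COL15A1 was at 1.51 (1.13 to 1.99) and 1.65 (0.964 to 2.65) in dermal papilla-like cells. In blood endothelial-like cells it was at 0.682 (0.352 to 1.19) and 1.56 (1.27 to 1.91). Fibroblast-like cells also had some of its UMIs, and the fibroblast class as a whole was at 1.44 and 1.31. COL15A1 had 0 UMIs in lymphatic endothelial-like cells of either library, which for the 27 FT-LCG cells allows up to 0.145. The fibroblast class held 74.0% of its 77 UMIs in CT-LCG and endothelial cells 63.2% of its 155 in FT-LCG. COL18A1, the source of endostatin, was spread wider. It was at 1.69 (1.17 to 2.37) and 3.54 (3.15 to 3.97) in endothelial cells and at 3.27 and 3.05 in pericyte-like cells. Keratinocytes held 90.8% and 92.6% of its UMIs, at 0.344 and 1.14. Among them, outer root sheath or bulge-like cells were at 3.78 (3.21 to 4.42) and 5.07 (4.87 to 5.27). Melanocyte-like cells were at 1.17 (3 UMIs) and 6.62 (52 UMIs, 4.95 to 8.69), the highest level of a ranked class in FT-LCG.

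Of the FACIT genes, COL12A1 and COL16A1 were the most counted. COL12A1, which bridges fibrils, had 94.9% and 93.3% of its UMIs in keratinocytes. In basal epidermal-like cells it was at 0.877 (0.793 to 0.968) and 1.95 (1.88 to 2.02), which is 27 and 13.1 times its level in suprabasal and granular cells. Outside the epidermis its highest level was in FT-LCG smooth muscle-like cells, at 12.9 (10.9 to 15.1, 157 UMIs in 14 cells), where CT-LCG had 1 UMI in 10 cells. COL16A1 varied less across the epidermis: basal over suprabasal and granular levels gave ratios of 2.44 (2.02 to 2.95) and 1.5 (1.36 to 1.66). COL14A1, a regulator of fibril diameter, was highest among CT-LCG keratinocytes in the inner root sheath-like cluster, whose leading genes also hold the hair shaft genes KRT35 and KRTAP11-1, at 0.468 (0.324 to 0.654), where FT-LCG was at 0.175 (0.146 to 0.209). In the FT-LCG fibroblast class it was at 1.08 (24 UMIs) against 0.101 (4 UMIs) in CT-LCG.

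COL17A1, the transmembrane collagen of hemidesmosomes, was the most counted collagen gene of the skin, with 4262 CT-LCG and 36686 FT-LCG UMIs, of which keratinocytes held 97.4% and 96.1%. It stepped down from basal to differentiated layers in both libraries. Basal epidermal-like cells had 5.42 (5.21 to 5.64) in CT-LCG and 8.88 (8.74 to 9.03) in FT-LCG, and suprabasal and granular cells 0.124 (0.103 to 0.148) and 0.885 (0.845 to 0.928). The ratio was 43.6 (36.5 to 52.6) in CT-LCG and 10.0 (9.55 to 10.5) in FT-LCG. Its size depended on the processing far beyond these intervals, from 21.0 to 58.2 in CT-LCG and from 8.97 to 34.8 in FT-LCG. Wherever a ratio was obtained the step stayed downward, but CT-LCG gave none without library correction or after 10% free RNA was subtracted. The subtraction took the CT-LCG suprabasal and granular level to 0. That level, 0.124 as counted, was below the 0.399 (0.172 to 0.785) of CT-LCG endothelial cells. Inner root sheath-like cells were at 0.619 and 0.534. After thinning, 32.1% and 55.1% of basal epidermal-like cells led by TNS4 and PLAT had a COL17A1 UMI (89.1% and 99.2% before), against 0 of 53 CT-LCG granular cells led by LOR, which allows up to 5.66%, and 3.97% of FT-LCG ones. Endothelial cells, which should lack it, had it in 4.88% and 5.97% (10.4% and 18.8% before), at a class median of 2013.5 and 2789 UMIs, and the FT-LCG granular cells were below that.

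As a layer, outer root sheath or bulge-like cells had less COL17A1 than basal cells, 0.720 (0.609 to 0.845) and 0.855 (0.824 to 0.886) times as much. Single clusters of that layer nevertheless had the highest COL17A1 levels among the 17 keratinocyte clusters with 20 or more cells in each library. In CT-LCG the cluster led by LCN2 and KRT19 was at 6.57 (5.23 to 8.15), and the basal cluster led by CCL27 and CTGF was at 6.32, within that interval. In FT-LCG the cluster led by ISM1 and BNC2 was at 30.0 (27.4 to 32.7, 508 UMIs in 100 cells), above the next, led by FCGBP and PIK3C2G, at 11.8. The cells of the ISM1 cluster were shallow, with a median of 1360.5 UMIs in FT-LCG. After thinning, which left out 28 of them, 90.3% (81.0 to 96.0%) had a COL17A1 UMI. In CT-LCG this cluster had 20 cells, of which 28.6% (8.39 to 58.1%) of the 14 left had one.

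COL7A1, whose fibrils anchor the basement membrane to the dermis, went with COL17A1. It had 93.1% and 94.9% of its UMIs in keratinocytes, was at 0.283 (0.236 to 0.336) and 0.557 (0.522 to 0.595) in basal epidermal-like cells, and exceeded suprabasal and granular cells 19.1 and 8.70 times. It too was highest in FT-LCG in the ISM1 cluster, at 3.72 (2.86 to 4.76). COL18A1 was higher in outer root sheath or bulge-like than in basal cells in both libraries, 4.61 (3.80 to 5.58) and 3.19 (3.02 to 3.37) times. COL12A1 went the other way in FT-LCG, at 0.248 (0.217 to 0.283) of the basal level, whereas the CT-LCG interval of 0.852 to 1.64 spanned 1. COL17A1, COL7A1, COL12A1 and COL18A1 were alike in stepping down from basal to suprabasal and granular cells in both libraries.

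**Figure D3:**
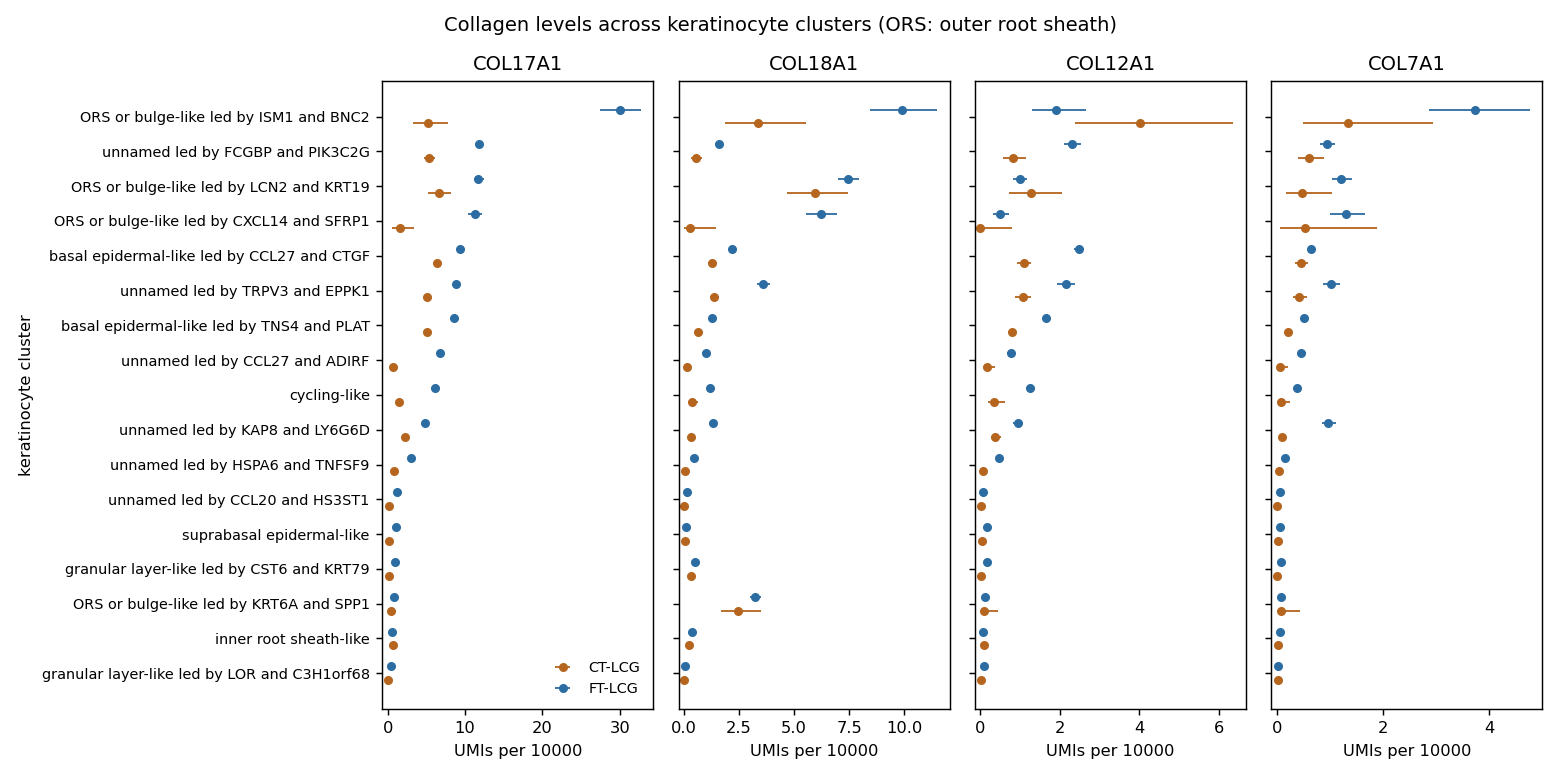
Levels of COL17A1, COL18A1, COL12A1 and COL7A1 (UMIs per 10000, x axis; points with exact Poisson 95% intervals) in the 17 keratinocyte clusters with 20 or more cells in each library (y axis), CT-LCG brown and FT-LCG blue. COL17A1 reaches 30.0 in the FT-LCG cluster led by ISM1 and BNC2 and falls to 0.381 in FT-LCG granular cells led by LOR, and FT-LCG lies above CT-LCG in 16 of 17 clusters.

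COL23A1, another transmembrane collagen, was counted in dermal papilla-like but not in fibroblast-like cells. It had 71 UMIs there in CT-LCG, in 37 of 66 cells, and 14 in FT-LCG, in 8 of 25 cells, at 2.07 (1.61 to 2.61) and 1.36 (0.745 to 2.29). The fibroblast-like cluster had 0 UMIs in both libraries, which allows up to 0.579 and 0.251. COL23A1 was not confined to dermal papilla-like cells. Keratinocytes held 13 of its 100 CT-LCG UMIs and, with 31.2%, were the class with the most of its 48 FT-LCG UMIs. The 51 CT-LCG cells of the unnamed cluster led by PAEP also held 13, at 0.181 (0.0966 to 0.310) against 0.00504 in keratinocytes. COL8A1, a short-chain network collagen, had 6 CT-LCG and 149 FT-LCG UMIs, 62 of the latter in the keratinocyte cluster led by TFPI2 and CXCL14, which held 342 FT-LCG and 17 CT-LCG cells.

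The 9 members with 10 to 99 UMIs were COL8A2 (72 UMIs), COL26A1 (56), COL21A1 (52), COL13A1 (43), COL9A1 (34), COL9A3 (31), COL11A2 (27), COL28A1 (27) and COL5A1 (11). Keratinocytes were the class with the most UMIs for 8 of them, by 22 against 20 in the fibroblast class for COL21A1, and the fibroblast class was for COL13A1, with 20 of 43. For these 8 genes the keratinocyte share ran from 42.3% to 92.9%, beside the 92.5% and 94.4% that keratinocytes held of all CT-LCG and FT-LCG UMIs. The fibroblast class, with 1.42% and 0.260% of all UMIs, held 11 UMIs of COL8A2, 6 of COL28A1 and 5 of COL5A1, 1 of COL9A3, and 0 of COL9A1, COL11A2 and COL26A1. The 9 members below 10 were COL9A2 (5 UMIs), COL6A5 (4), COL2A1, COL4A3 and COL4A4 (3 each), COL19A1 (2), and COL6A6, COL22A1 and COL25A1 (1 each). At this depth these last 9 cannot be assigned to a cell type.

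Within the fibroblast class, FT-LCG was the higher library for most collagen genes. Of the 17 members with at least 20 UMIs over both libraries, 9 were at least 2 times higher in FT-LCG, where 8.66% of all 4390 genes compared were, and 2 were at least 2 times higher in CT-LCG, where 13.9% of genes were. The median log2 ratio of CT-LCG over FT-LCG was -1.0 over these members and 0.11 over all genes. COL1A1 was 4.33 (4.11 to 4.56) times higher in FT-LCG, COL3A1 4.14 (3.83 to 4.48) and COL1A2 3.80 (3.59 to 4.02) times. COL6A1 was 2.48, COL6A2 2.51, COL16A1 2.51, COL18A1 3.37 and COL14A1 10.7 times higher (4 against 24 UMIs), while COL5A2 sat at the limit with 2.00 (1.41 to 2.85). The 2 genes higher in CT-LCG were COL23A1, 2.85 (1.59 to 5.48) times, and COL21A1, with 18 against 2 UMIs. COL4A1 was 1.90 (1.38 to 2.66) times higher in CT-LCG.

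The class was not made of the same cells in the 2 libraries. Fibroblast-like cells were 8 of 74 in CT-LCG and 31 of 56 in FT-LCG and held 13.1% and 53.8% of the class's UMIs. In the fibroblast-like cluster alone, COL1A1 was at 361 (345 to 377) and 405 (394 to 417), a CT-LCG to FT-LCG ratio of 0.891 (0.844 to 0.940). COL1A2 was at 316 and 305, with a ratio of 1.04 (0.978 to 1.10), and COL3A1 at 159 and 174, with a ratio of 0.909 (0.838 to 0.986). COL6A1, COL6A2 and COL5A2 were at 29.9 and 25.5, at 30.9 and 23.8, and at 8.30 and 5.11, all somewhat higher in CT-LCG, the first with an interval of the ratio, 0.963 to 1.43, that spans 1. Of 11 members compared there, 3 were at least 2 times higher in FT-LCG (background 13.9% of 1147 genes), COL4A1, COL14A1 and COL16A1, the last 2 with intervals that span 1, and 1 in CT-LCG (background 11.4%), COL12A1 with 13 against 8 UMIs. The COL4A1 fold rests on 0 CT-LCG UMIs, taken as 3.

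**Figure D4:**
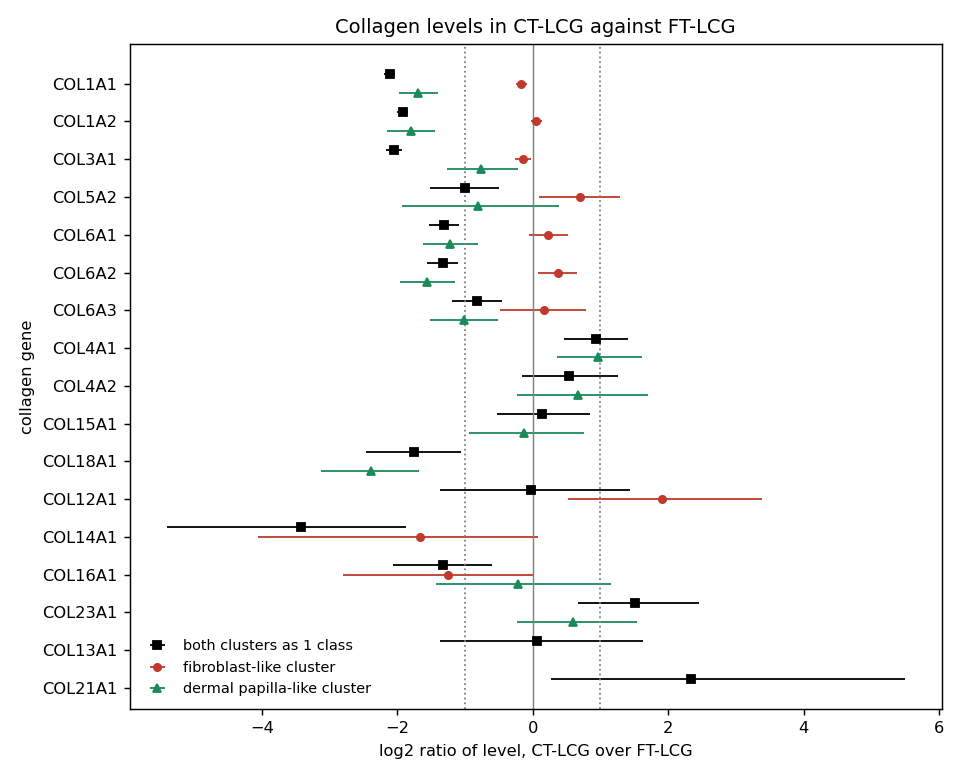
Log2 ratio of the level in CT-LCG over FT-LCG (x axis, with conditional 95% intervals) for the collagen genes with at least 20 UMIs (y axis), in the fibroblast class (black squares) and in the fibroblast-like and dermal papilla-like clusters alone. Dotted lines mark 2-fold differences. For COL1A1 the class lies at -2.11 and the fibroblast-like cluster at -0.17. COL4A1 in the fibroblast-like cluster, with 0 CT-LCG UMIs, is not drawn.

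In dermal papilla-like cells the fibrillar and collagen VI genes were higher in FT-LCG. COL1A1 was at 5.77 (4.99 to 6.63) in CT-LCG and 18.6 (16 to 21.4) in FT-LCG, COL1A2 at 3.84 and 13.4, and COL18A1 at 0.815 and 4.28, a difference of 5.25 (3.20 to 8.76) times. COL6A1, COL6A2 and COL6A3 were 2.33, 2.95 and 2.03 times higher. Of 13 members, 6 were at least 2 times higher in FT-LCG (background 8.49% of 3391 genes) and 0 in CT-LCG (background 15.0%). The fibroblast markers DCN, at 2.5 and 6.13, and LUM, at 0.175 and 1.36, also moved that way in this cluster. PDGFRA, from the same marker list, moved the other way, at 2.33 and 1.46. Of the cluster's 25 FT-LCG cells, 1 held 34.0% of its COL1A1 UMIs. The split of the class also depended on the library correction. Without it FT-LCG had 44 fibroblast-like and 11 dermal papilla-like cells, and CT-LCG had 8 and 68. The part of the marker shifts, of this cell or of this split in the collagen ratios was not tested. COL4A1, at 4.92 and 2.53, and COL23A1, at 2.07 and 1.36, were higher in CT-LCG, as was COL4A2 at 1.86 and 1.17, the last 2 with intervals of the ratio that span 1.

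Single fibroblast-like cells differed far more than the libraries did. COL1A1 per cell ranged from 105 through a median of 313 to 1213 UMIs per 10000 in the 8 CT-LCG cells and from 7.93 through 138 to 1769.9 in the 31 FT-LCG cells. The ranges overlapped, and the CT-LCG median was the higher although the pooled level was the lower. The top cell held 30.1% of the CT-LCG and 32.3% of the FT-LCG COL1A1 UMIs of the cluster. Without the cell with the most collagen in each library, COL1A1 was at 354 in the other 7 CT-LCG cells and at 307 in the other 30 FT-LCG cells, a ratio of 1.15 (1.08 to 1.23), so the direction of this difference turned with 1 cell taken from each library. COL3A1 turned as well, to 1.06 (0.956 to 1.17), and COL1A2 was at 1.12 (1.04 to 1.21). Leaving out these cells was chosen after seeing the data. All collagen genes together made up 3.22 to 19.4% of a CT-LCG fibroblast-like cell's UMIs, with a median of 9.49%, and 0.660 to 38.2% in FT-LCG, with a median of 4.26%.

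Dermal papilla-like cells lay lower. Their COL1A1 ran from 0 through 4.59 to 39.8 UMIs per 10000 in CT-LCG, with a UMI in 58 of 66 cells, and from 0 through 11.3 to 185 in FT-LCG, with one in 20 of 25. All collagens took a median of 0.339% and 0.872% of a cell's UMIs. Over all cells of a library, 24 CT-LCG and 32 FT-LCG cells sufficed to hold 90% of the COL1A1 UMIs, whereas 607 and 3320 were needed for COL17A1.

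**Figure D5:**
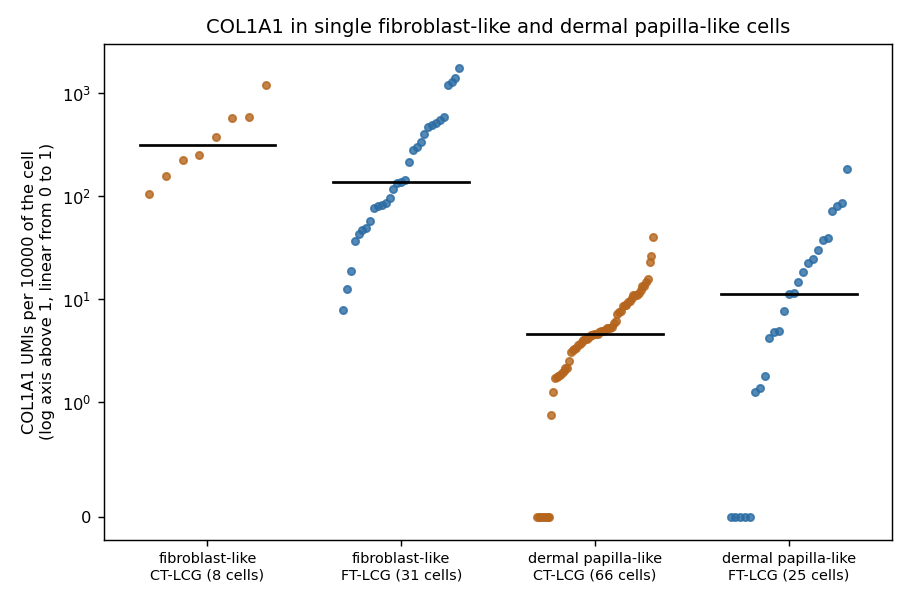
COL1A1 UMIs per 10000 (y axis, logarithmic above 1 and linear below) in each fibroblast-like and dermal papilla-like cell (points) of CT-LCG (brown) and FT-LCG (blue), with the median as a bar. Fibroblast-like cells span 105 to 1213 in CT-LCG and 7.93 to 1769.9 in FT-LCG, and dermal papilla-like medians are 4.59 and 11.3.

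In keratinocytes too FT-LCG was higher for many members. Of 29 with at least 20 UMIs, 11 were at least 2 times higher in FT-LCG (background 13.2% of 15026 genes) and 1, COL23A1 with 13 against 15 UMIs, in CT-LCG (background 8.03%). The median log2 ratio was -0.76 for the members and -0.06 for all genes. COL17A1 was 2.72 (2.63 to 2.81) times higher in FT-LCG, COL18A1 3.32 (3.09 to 3.56), COL7A1 3.17 (2.80 to 3.61), COL12A1 2.91 (2.70 to 3.15) and COL5A2 4.42 (3.53 to 5.59) times. By cluster, COL17A1 was higher in FT-LCG in 16 of the 17 clusters with 20 or more cells in each, at least 2 times in 11, and COL18A1 and COL7A1 in all 17. The exception for COL17A1 was the inner root sheath-like cluster. In the same 17 clusters the basal keratins KRT5 and KRT14 were higher in FT-LCG in 17, at least 2 times in 12, and the suprabasal keratin KRT1 was higher in CT-LCG in 17. The other suprabasal keratin, KRT10, was higher in CT-LCG in 13 clusters and in FT-LCG in 4. In suprabasal epidermal-like cells of CT-LCG and FT-LCG, for example, KRT14 was at 8.09 and 32.7, KRT1 at 233 and 232, and KRT10 at 367 and 506. The part of cell makeup within clusters in the collagen differences was not tested. COL1A1, COL24A1, COL27A1 and COL4A5 differed by 1.29 times or less between the libraries.

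In endothelial cells, of 6 members compared, 2 were at least 2 times higher in FT-LCG (background 12.7% of 5727 genes), COL18A1 at 2.09 (1.46 to 3.07) times and COL17A1 at 2.26 (1.09 to 5.42), and 0 were in CT-LCG (background 7.67%). The median log2 ratio was -0.80 against -0.07 over all genes. COL4A1 was 1.29 (1.03 to 1.62) times higher in CT-LCG. COL17A1 moved in the same direction in keratinocytes, and in FT-LCG macrophage or dendritic-like cells, where KRT14 was at 233 against 14.2 in CT-LCG, it was at 6.95 against 1.59. The part of keratinocyte RNA in these levels was not tested. The mural class, with only 17 CT-LCG cells, went the other way. Of 15 members compared there, 5 were at least 2 times higher in CT-LCG (background 9.74% of 2576 genes) and 2 in FT-LCG (background 15.7%). The median log2 ratio was 0.25 against -0.08 over all genes. Its pericyte-like cells had COL4A1 3.23 (2.09 to 4.95) times higher in CT-LCG, from 7 against 33 cells.

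For the 2 chains of collagen I, COL1A1 over COL1A2 was at 1.14 (1.07 to 1.22) in CT-LCG and 1.33 (1.27 to 1.39) in FT-LCG fibroblast-like cells. The CT-LCG ratio leaned on the cell with the most collagen, which had 563 COL1A1 and 726 COL1A2 UMIs. Without the top cell of each library, the COL1A1 and COL1A2 counts were 1305 and 912 in CT-LCG and 3275 and 2350 in FT-LCG. In FT-LCG keratinocytes the ratio was 0.920 (0.804 to 1.05), below the fibroblast-like interval, and in their cluster led by LCN2 and KRT19 it was 0.333 (0.213 to 0.509), from 30 and 90 UMIs. In CT-LCG keratinocytes it was 1.26 (0.966 to 1.64), an interval that holds the fibroblast-like ratio. For COL4A1 over COL4A2, endothelial cells gave 2.17 (1.52 to 3.12) and 1.52 (1.28 to 1.81), and keratinocytes 1.96 (1.52 to 2.53) and 1.55 (1.44 to 1.67), with overlapping intervals.

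Genes most like a collagen were sought by Pearson correlation of log levels over the 30 clusters of a library, as a description only. COL1A1 ran with COL1A2 (r = 0.970), AEBP1 (0.940), PRRX1 (0.913), MXRA8 (0.888) and COL3A1 (0.887) in CT-LCG and with COL3A1 (0.974), COL1A2 (0.973), COL6A1 (0.954), FKBP10 (0.951) and LUM (0.947) in FT-LCG. COL17A1 ran with POSTN (0.895), COL7A1 (0.847), VWA1 (0.766), TP63 (0.760) and RHOBTB2 (0.756) in CT-LCG and with TNS4 (0.892), P3H2 (0.886), FAT2 (0.874), LAMB3 (0.865) and AJUBA (0.863) in FT-LCG, with no gene in both lists. COL4A1 had COL4A2 first in both, at 0.880 and 0.957. It was followed by SLC9A3R2 (0.835), CRIM1 (0.800), ADAM10 (0.787) and SOCS5 (0.785) in CT-LCG and by RARRES2 (0.918), IGFBP7 (0.893), TCF4 (0.889) and SGCE (0.887) in FT-LCG.

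The genes that make, process and break down collagen were read from 4 lists. Of 17 synthesis and folding genes with 100 or more UMIs, 10 had their highest level in the fibroblast class in both libraries, as did 7 of 11 processing and crosslinking genes, 4 of 9 degradation genes and 1 of 7 collagen receptors. In the fibroblast class the libraries were at least 2 times apart, always with FT-LCG higher, for 2 of 11 synthesis, 7 of 10 processing, 0 of 6 degradation and 1 of 4 receptor genes with 20 or more UMIs, beside the background of 8.66%. In the fibroblast-like cluster alone, 4 of these 10 genes, P3H4, FKBP10, ADAMTS2 and TNXB, were higher in CT-LCG. SERPINH1, the collagen chaperone, was at 4.68 and 7.74 in CT-LCG and FT-LCG, PPIB, a prolyl isomerase, at 11.0 and 12.2, and P4HB, a subunit of prolyl 4-hydroxylase, at 2.38 and 3.11. MIA3, which loads procollagen for export, was at 0.936 and 0.810. SPARC, a collagen-binding matrix protein, was at 9.57 and 39.9 and PCOLCE, the enhancer of procollagen cleavage, at 7.41 and 15.5, but in the fibroblast-like cluster alone they were at 56.8 and 70.4 and at 18.2 and 20.7. The crosslinking enzymes LOX and LOXL1 were at 1.64 and 2.25 and at 3.72 and 2.66.

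On the side of breakdown, MMP2, a gelatinase, was at 6.4 and 5.22 in the CT-LCG and FT-LCG class and at 31.9 and 6.78 in the fibroblast-like cluster. The protease inhibitors TIMP1, TIMP2 and TIMP3 were at 4.18 and 7.47, at 9.29 and 12.3, and at 3.72 and 2.79 in the class, and TIMP2 was at 37.3 and 17.2 in the fibroblast-like cluster. Of the receptors, ITGB1 was at 3.64 and 3.96, CD44 at 0.658 and 1.67, MRC2 at 0.886 and 1.22 and ITGA1 at 0.481 and 0.270. In the fibroblast-like cluster, 23 genes of the 4 lists had 20 or more UMIs. Of these, 6 were at least 2 times higher in CT-LCG, beside a background of 11.4%, and 1 in FT-LCG, beside 13.9%. The 6 were MMP2, TIMP2, TIMP3, CTSK and FAP, 5 of the 6 degradation genes compared, and LOX at 11.6 and 4.02, and the 1 was FMOD at 0.193 and 1.59. This count was added after the values were seen and rests on 8 and 31 cells.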

How the data were processed

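Single-cell RNA-seq of skin from 2 goats was analysed, 1 library per fibre type. The authors deposited whole-number UMI counts per gene and barcode, made with Cell Ranger 3.0.2 per the file headers. The submitters' notes name Seurat 3.1.1, and the goat genome build was not given in the sources used here, so no coordinates are printed. The fibre type of each cell came from the deposited table of 13051 kept cells, because the labels do not say which goat is which. The other 4248 barcodes, with at most 500 genes, were left out by the authors and are described only in the closing section.

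Counts were log-normalised per 10000 and clustered in Python 3.11.15 with scanpy 1.11.5, leidenalg 0.10.2, igraph 0.11.9, scikit-learn 1.9.0, numpy 2.4.6, scipy 1.17.1 and pandas 2.3.3 (2000 variable genes, 30 principal components, a numpy version of Harmony over libraries, 20 neighbours, resolution 1.0, and a second round with 15 components and again 20 neighbours at resolution 0.6). Collagen genes and the collagen pathway genes were left out of clustering and of the marker lists. A cluster was named "-like" from at least 3 markers at 2 times the other cells with 10 UMIs or more. The mean log2 fold over the marker list also had to be at least 1.0. The 10 leading genes had to hold a marker of the list and not go against the name. By this rule 22 of 30 clusters were named. Unnamed clusters with a summed level of KRT1, KRT5, KRT10 and KRT14 of 100 or more per 10000 were placed among the keratinocytes. Doublets were not removed. The naming rule and resolutions were set after the clusters were seen, and the members and gene lists were chosen with earlier results of these data known.

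Genes with 100 UMIs or more were ranked over classes of 20 cells or more, and libraries were compared for genes with 20 UMIs or more over both, at least 2 times apart counting as a difference. A count of 0 was taken to allow up to 3. Members are named by total: with 100 UMIs or more by class and library, with 10 to 99 by total and leading class, below 10 by total. Pathway genes are the up to 4 per list with most UMIs in the fibroblast class, and the 5 genes most alike are given for COL1A1, COL17A1 and COL4A1. For these correlations a pseudocount of 0.1 was used. Scripts were tested on simulated data, and figures were drawn with matplotlib 3.10.9.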

Additional observations from a re-analysis of the deposited data

Results flagged for a closer look

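Barcodes that the authors did not keep also held collagen transcripts. In CT-LCG, 2659 such barcodes had 926 collagen UMIs, at 4.67 per 10000 (95% interval 4.38 to 4.98), against 5.35 in kept cells. In FT-LCG, 1589 had 1440, at 14.4 (13.7 to 15.2), against 9.70. COL17A1 was the most counted there, with 352 and 579 UMIs, and COL1A1 had 76 and 120. These barcodes enter no comparison above, and whether they are small cells or free RNA was not tested.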

How the results depend on the processing

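The share of collagen UMIs in the fibroblast class, 40.4% in CT-LCG and 14.7% in FT-LCG, became 43.4% and 14.3% in cells with 1000 genes or more, 36.5% and 18.9% as a mean over cells, 43.9% and 16.3% after 10% free RNA was subtracted, 41.2% and 15.8% after Scrublet, and 32.6% and 10.9% without the top cell. Thinning gave 19.5% in FT-LCG. The count of members higher in FT-LCG, 9 in the fibroblast class, was 3 in the fibroblast-like cluster alone. These 3 include COL4A1, which is not among the 9. In that cluster the log2 ratios of COL1A2 (0.05), COL5A2 (0.70), COL6A1 (0.23) and COL6A2 (0.38) turned to CT-LCG. The count higher in CT-LCG, 2, was 1 with 1000 genes or more. It was also 1 in the fibroblast-like cluster, where the gene was COL12A1, not among the 2. The count was 0 after thinning, with a 100 UMI minimum and in the dermal papilla-like cluster, but 3 as a mean over cells and without ribosomal protein genes. Basal over suprabasal and granular COL17A1, 43.6 in CT-LCG and 10.0 in FT-LCG, became 57.7 and 10.6 with collagen genes kept in clustering, 53.9 and 10.6 at a resolution 0.3 higher, 58.2 and 13.5 with another seed, and 28.0 and 8.97 after thinning. It was 21.0 in CT-LCG as a mean over cells, and in FT-LCG 34.8 without library correction, 18.5 after free RNA and 12 after Scrublet. CT-LCG gave no value without library correction, nor after free RNA subtraction, which took its suprabasal and granular level to 0. The cause of these shifts was not tested. The number of genes highest in the fibroblast class stayed at 11 to 16 in CT-LCG and 11 to 14 in FT-LCG. Depth limits the 18 members below 100 UMIs, and 1 library per fibre type limits every comparison of the libraries.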
